A study of Rattus norvegicus with 6 samples.

Results

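The hepatic ABC export pumps are ATP-driven transporters that carry drugs, conjugates, bile salts and lipids out of the hepatocyte. The 10 genes described here were Abcc2, Abcb11, Abcb4, Abcb1a, Abcb1b, Abcg2, Abcg5 and Abcg8, whose proteins sit in the canalicular membrane facing bile, and Abcc3 and Abcc4, whose proteins sit in the basolateral membrane facing blood. Their probes were found by matching the RefSeq accession of each non-control probe to a member gene. This gave 20 probes of 61657, for all 10 genes of the 15284 genes with a named probe. In the RefSeq table Abcc2 lies on chromosome 1, Abcb11 on 3, Abcb4, Abcb1a, Abcb1b and Abcg2 on 4, Abcg5 and Abcg8 on 6, Abcc3 on 10 and Abcc4 on 15.

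The array data came from liver of 6 male Sprague-Dawley (Crl:CD(SD)) rats, 1 Agilent 1-colour array per animal. Phenolphthalein, a pH indicator and former laxative, was given to 3 rats at 1000 mg per kg per day, and corn oil, the vehicle, to the other 3. The treatment protocol gives 9 weeks and the design text 28 days, and the rats were 5 weeks old at purchase. The phenolphthalein arrays were on slide 2 and scan 2 and the corn oil arrays on slide 1 and scan 1, so treatment, slide and scan cannot be told apart in any comparison below.

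Phenolphthalein is conjugated with glucuronic acid in the liver and its glucuronide is excreted in bile. Abcc2 exports glucuronide and glutathione conjugates, bilirubin glucuronide among them, across the canaliculus, and Abcc3 moves glucuronides across the basolateral membrane into blood. Several of the pump genes are known targets of the nuclear receptors and of NRF2, the factors by which the liver answers drugs, bile acids and oxidants.

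Between 62.1% and 65.1% of the probes of each array were well above background, and no spot was saturated. Hepatocyte transcripts were abundant on every array. The summed signal of 9 hepatocyte markers, Alb and Ttr among them, was 4740 to 4920 times an array's 75th percentile with phenolphthalein, and 4520 to 4870 with corn oil. Markers of Kupffer cells, the liver's macrophages, had a negative log2 fold change in 9 of 9 genes, where 51.8% of all genes had a positive one. All 9 had an unadjusted p under 0.05, against 14.2% of all genes, and 0 passed in limma. Their sums were 134 to 176 with phenolphthalein and 182 to 259 with corn oil. In bulk liver, fewer cells of a type and less RNA per cell cannot be told apart. A line of low spots crossed the array of phenolphthalein replicate 1, where 69 of 144 bright spots of array column 58 (47.9%) lay over 2 log2 units below the probe's median over the 6 arrays, against 0.104% in its other columns. Phenolphthalein replicate 3 had a weaker line, column 144, with 16 of 141 bright spots (11.3%).

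Promoter windows from RefSeq (assembly GRCr8, 250 bases before to 50 after the gene's start) were at hand for 8 of the 10 genes, all but Abcb11 and Abcc3. Abcc2 is shown because its window was the only one of the 8 with AGGTCA, a core motif that nuclear receptors bind. It lies at chr1:252613625-252613924 on the plus strand. Capitals mark AGTTCA (a core motif of the same kind), AGGTCA itself and TGACNNNGC, the core letters of the antioxidant response element, on either strand.

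Abcc2: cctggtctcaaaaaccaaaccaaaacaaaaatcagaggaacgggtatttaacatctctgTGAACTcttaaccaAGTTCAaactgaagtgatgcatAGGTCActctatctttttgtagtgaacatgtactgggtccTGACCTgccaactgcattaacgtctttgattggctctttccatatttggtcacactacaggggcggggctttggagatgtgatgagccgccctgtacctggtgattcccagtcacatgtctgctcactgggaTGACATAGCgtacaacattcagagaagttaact

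Abcb1a and Abcb1b are shown because they are neighbouring paralogs. No other protein-coding gene of the RefSeq table lies between them, or between Abcb1b and Abcb4, on chromosome 4. The Abcb1a window lies at chr4:26397599-26397898 and the Abcb1b window at chr4:26279980-26280279, both on the minus strand. Capitals mark the 3 stretches of at least 11 bases that both windows hold, of 14, 11 and 15 bases.

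Abcb1a: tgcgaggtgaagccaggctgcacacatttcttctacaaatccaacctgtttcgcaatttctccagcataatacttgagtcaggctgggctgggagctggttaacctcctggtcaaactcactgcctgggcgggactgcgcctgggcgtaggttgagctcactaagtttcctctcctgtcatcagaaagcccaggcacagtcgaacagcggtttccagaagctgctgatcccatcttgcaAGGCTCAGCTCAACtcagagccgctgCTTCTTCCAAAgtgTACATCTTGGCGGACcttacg

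Abcb1b: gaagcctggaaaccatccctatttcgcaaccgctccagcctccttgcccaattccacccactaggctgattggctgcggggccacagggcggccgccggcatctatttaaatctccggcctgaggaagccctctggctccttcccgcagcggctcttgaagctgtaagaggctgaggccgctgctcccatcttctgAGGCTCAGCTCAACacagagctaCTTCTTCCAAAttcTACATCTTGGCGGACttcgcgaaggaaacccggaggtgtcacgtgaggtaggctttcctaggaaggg

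Abcg5 is shown because it shares its promoter with Abcg8, a divergent gene whose start is 205 bases away on the opposite strand. The windows of the pair overlap by 295 bases. The Abcg5 window lies at chr6:15717686-15717985 on the plus strand, and capitals mark CCAAT and AGTTCA on either strand.

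Abcg5: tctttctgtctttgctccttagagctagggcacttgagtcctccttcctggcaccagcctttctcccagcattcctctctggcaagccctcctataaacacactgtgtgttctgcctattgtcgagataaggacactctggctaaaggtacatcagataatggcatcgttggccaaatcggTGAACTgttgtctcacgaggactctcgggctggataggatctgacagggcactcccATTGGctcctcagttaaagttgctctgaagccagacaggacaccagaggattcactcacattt

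Over both strands, AGTTCA was in 4 of the 8 pump windows, against 14.5% of 33469 windows of the same length, where Abcg5 and Abcg8 are counted separately. AGGTCA was in 1 of 8, against 16.2%, and TGACNNNGC in 3 of 8, against 12.1%. GGGCGG, the GC box, was in 6 of 8, against 33.1%, and CCAAT in 4 of 8, against 37.5%. AGGTCA read on the other strand and TGACNNNGC both begin with TGAC, so that their matches can overlap. Every match of AGTTCA, TGACNNNGC and CCAAT in the Abcg5 and Abcg8 windows is 1 copy in their overlap that is counted for both genes. A match is a description of letters and not a shown binding site.

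The comparison asked whether transcripts of the export pumps differed between phenolphthalein and corn oil livers. Signals are given as log2 of the spot's processed signal relative to its array's 75th percentile, so 0 is the 75th percentile and each unit is a doubling. Signals of different probes cannot be set against each other as RNA amounts. Of the 20 probes, 18 were well above background on at least 3 of 6 arrays and were tested. A limma fit over 39411 probes, with p-values adjusted over all of them by Benjamini-Hochberg, put 0 of the 18 under an adjusted p of 0.05, where 0.0482% of all probes passed, 0.0457% as higher and 0.00254% as lower with phenolphthalein. The smallest limma adjusted p of a pump probe was 0.338. At an unadjusted p under 0.05 there were 2 pump probes, or 11.1%, against 13.2% of all probes. Both were higher with phenolphthalein, as were 6.84% of all probes. The log2 fold change was positive for 15 of the 18 pump probes and for 53.4% of all probes, with a median of 0.23 for the pump probes and 0.02 for all.

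**Figure D1:**
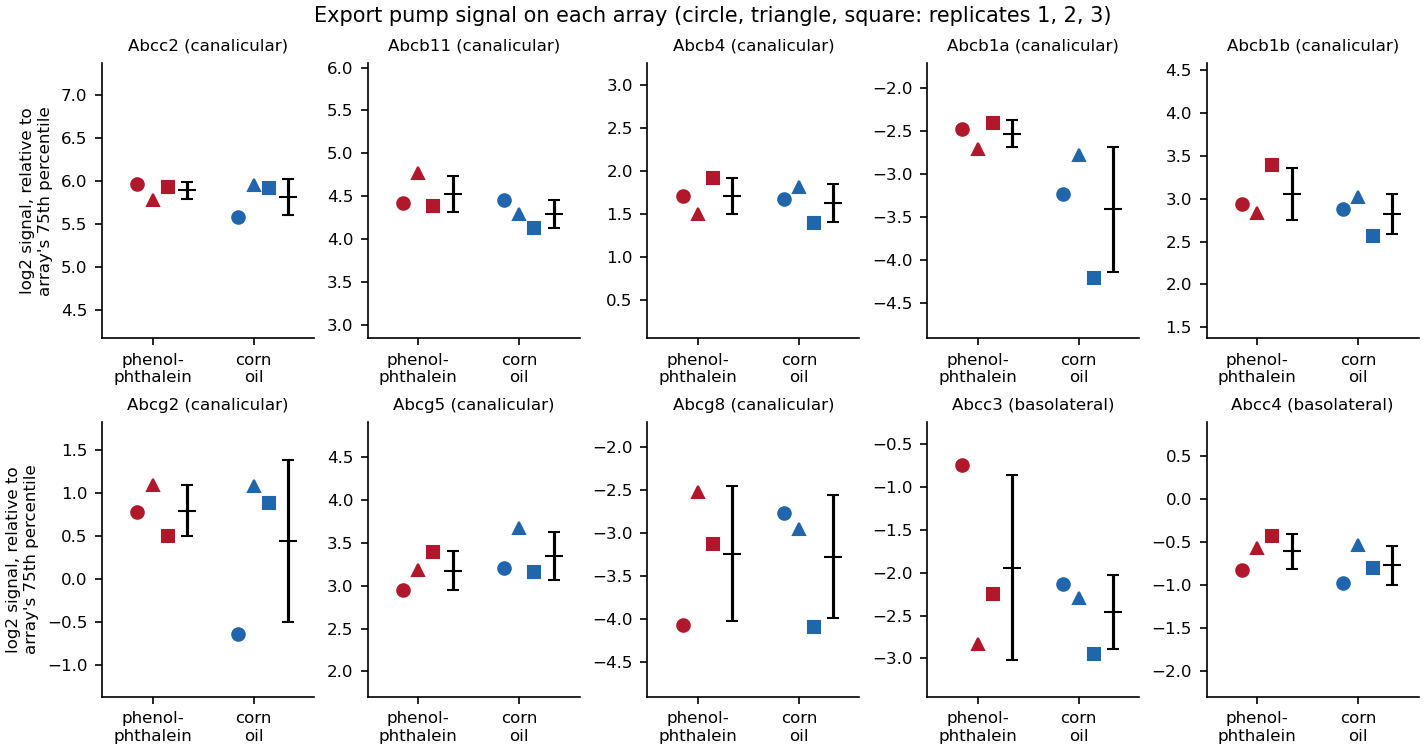
Signal of the 10 export pump genes on each array, as log2 relative to the array's 75th percentile, for the brightest probe of each gene. Red points are the 3 phenolphthalein arrays and blue points the 3 corn oil arrays, bars give mean ± SD, and every panel spans the same number of log2 units. Abcb1a is the gene whose groups do not overlap, while Abcc3 with phenolphthalein and Abcg2 with corn oil each have 1 array far from the other 2.

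Abcc2, the canalicular pump for glucuronides, hardly differed in mean. Its log2 signal was 5.96, 5.78 and 5.92 in phenolphthalein livers, against 5.57, 5.95 and 5.92 in corn oil livers. The lowest value was corn oil replicate 1, and the groups overlapped. The phenolphthalein to corn oil fold was 1.05, with a 95% interval of 0.845 to 1.31 (limma adjusted p = 0.83).

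Abcb11 is the bile salt export pump, and Abcb4 the transporter that supplies phosphatidylcholine to bile. Abcb11 had log2 signals of 4.43, 4.77 and 4.39 with phenolphthalein, and 4.46, 4.29 and 4.13 with corn oil. The groups overlapped through corn oil replicate 1, and the log2 fold change was 0.23 ± 0.14 (SE, limma adjusted p = 0.528). Abcb4 had log2 signals of 1.71, 1.5 and 1.92 with phenolphthalein, and 1.68, 1.82 and 1.39 with corn oil. Its groups covered nearly the same range, and the log2 fold change was 0.08 ± 0.16 (SE, limma adjusted p = 0.854). For both genes a 2-fold change either way lay outside the 95% interval, which ran from -0.12 to 0.59 for Abcb11 and from -0.31 to 0.47 for Abcb4.

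Abcb1a and Abcb1b code for the P-glycoproteins that pump out many lipophilic drugs, and rodents have both copies in place of the single human gene. The one Abcb1a probe read -2.47, -2.70 and -2.41 with phenolphthalein, against -3.23, -2.78 and -4.21 with corn oil. All phenolphthalein arrays lay above all corn oil arrays, with a gap of 0.08 log2 units between the groups. The log2 fold change was 0.88 ± 0.36 (SE), the largest of the 10 genes' brightest probes, and did not pass (limma adjusted p = 0.378). Without corn oil replicate 3, the lowest array, it was 0.48, and with the normexp background correction 0.46. Endothelial cells also carry P-glycoprotein. The summed signal of 8 endothelial markers was 60.3 to 67.2 with phenolphthalein and 65.9 to 68.0 with corn oil, and 6 of the 8 had a negative log2 fold change. Fcgr2b, a marker in this sum, had its probe in array column 58, the line of low spots on phenolphthalein replicate 1. It read 3.8 there, against 4.02 and 4.1 on the other phenolphthalein arrays. Its log2 fold change was -0.17 ± 0.11 (SE), and -0.09 ± 0.10 (SE) with the low columns set missing. The part of endothelial cells in the Abcb1a values was not tested.

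Abcb1b had 3 probes, called probes 1 to 3 from the brightest down, which did not move alike. Probe 1 read 2.94, 2.83 and 3.39 with phenolphthalein, and 2.88, 3.02 and 2.56 with corn oil, with overlapping groups and a log2 fold change of 0.23 ± 0.19 (SE). Probe 3 read -2.82, -2.65 and -1.92 with phenolphthalein, and -3.07, -3.06 and -3.34 with corn oil. Its groups did not overlap, by 0.24 log2 units, and the log2 fold change was 0.70 ± 0.25 (SE, limma adjusted p = 0.338). Probe 2 spanned 3.13 log2 units within the phenolphthalein group, at -2.05, -1.04 and 1.09, against -0.78, -1.86 and -0.97 in the corn oil group. Phenolphthalein replicate 3 was the highest array for all 3 probes, but probes 1 and 2 differed by up to 1.56 log2 units in their deviation from their own mean on that array. Which of these probes best reports Abcb1b was not tested.

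Non-overlap of the groups, in either direction, was seen for 2 of the 18 pump probes (11.1%), 1 of Abcb1a and 1 of Abcb1b, both higher with phenolphthalein. It was seen for 21.1% of all probes tested, and for 11.8% as higher with phenolphthalein.

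Abcb4 and probe 1 of Abcb1b ranked the 6 arrays in the same order. It was the single such case among 45 pairs of pump genes, and was picked out after all were compared. From high to low the order was phenolphthalein replicate 3, corn oil replicate 2, phenolphthalein replicate 1, corn oil replicate 1, phenolphthalein replicate 2 and corn oil replicate 3. Probes 2 and 3 of Abcb1b each ranked the arrays in another order. Abcb1a and probe 1 of Abcb1b also differed in order, with phenolphthalein replicate 3 highest and corn oil replicate 3 lowest for both. Abcb4 and Abcb1b are neighbours and paralogs, and whether a probe also binds the other gene's RNA was not tested.

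Abcg2, the breast cancer resistance protein that exports sulfate conjugates and many drugs, had 2 probes that moved together. Probe 1 read 0.78, 1.1 and 0.50 with phenolphthalein, against -0.65, 1.09 and 0.88 with corn oil. Probe 2 read 0.53, 0.73 and 0.24 with phenolphthalein, against -0.89, 0.89 and 0.75 with corn oil. Corn oil replicate 1 was the low array for both, and the probes' deviations differed by at most 0.13 log2 units on any array. The log2 fold change of probe 1 was 0.35 ± 0.47 (SE, limma adjusted p = 0.778), and -0.19 without corn oil replicate 1.

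Abcg5 and Abcg8 form the heterodimer that exports cholesterol and plant sterols into bile, from the divergent promoter shown above. Abcg5 read 2.94, 3.19 and 3.39 with phenolphthalein, and 3.20, 3.67 and 3.16 with corn oil, and was the only pump gene with a negative log2 fold change, -0.17 ± 0.18 (SE, limma adjusted p = 0.721). Abcg8 had 1 measured probe, at -4.07, -2.51 and -3.13 with phenolphthalein and -2.76, -2.95 and -4.09 with corn oil. Each group held 1 array well below its other 2, and the log2 fold change was 0.03 ± 0.51 (SE, limma adjusted p = 0.984). The other 2 Abcg8 probes failed the background limit on all 6 arrays and were not tested. The genes of the pair ranked the arrays differently, with phenolphthalein replicate 2 highest for Abcg8 and corn oil replicate 2 highest for Abcg5.

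Abcc3, the basolateral glucuronide exporter, was set apart by 1 animal. Its probe 1 read -0.74, -2.84 and -2.24 with phenolphthalein, against -2.14, -2.30 and -2.95 with corn oil. Phenolphthalein replicate 1 was the highest array, while phenolphthalein replicate 2 lay close to the lowest corn oil array. Probes 2 and 3 put phenolphthalein replicate 1 highest too, 1.33 and 1.63 log2 units above their own means, against 1.46 for probe 1. The log2 fold change of probe 1 was 0.52 ± 0.55 (SE, limma adjusted p = 0.714), and -0.08 without phenolphthalein replicate 1. Bile duct cells also express Abcc3. The summed linear signal of 7 bile duct markers was 2.79 to 2.83 times an array's 75th percentile with phenolphthalein and 2.30 to 2.52 with corn oil, and their part in the Abcc3 values was not tested.

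Abcc4 exports bile acids and cyclic nucleotides across the basolateral membrane. Its probe 1 read -0.83, -0.57 and -0.43 with phenolphthalein, against -0.98, -0.53 and -0.80 with corn oil, with a log2 fold change of 0.16 ± 0.16 (SE, limma adjusted p = 0.688). Probes 2 and 3 had log2 fold changes of 0.14 ± 0.23 and -0.04 ± 0.14 (SE), and all 3 differed by at most 0.36 log2 units in deviation on any array. Probe 4 read -7.73 on phenolphthalein replicate 1, against -2.83 and -2.83 on the other phenolphthalein arrays and -3.25, -2.62 and -2.97 with corn oil. That spot lay in array column 58, the line of low spots, and gave the probe a log2 fold change of -1.51 ± 1.35 (SE). With the spots of the low columns set missing, an alternative chosen after seeing the data, the change was 0.12 ± 0.20 (SE, limma adjusted p = 0.828).

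**Figure D2:**
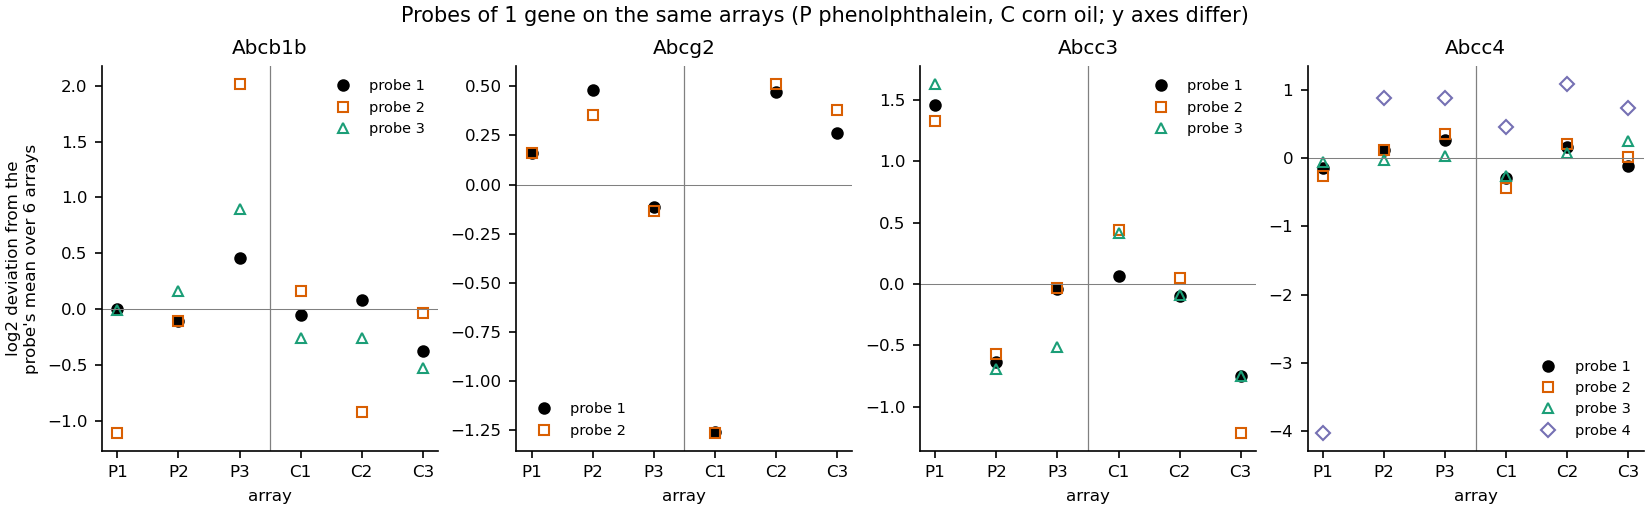
Log2 deviation of each probe from its own mean over the 6 arrays, for the 4 pump genes with more than 1 measured probe, P being phenolphthalein and C corn oil replicates. The 2 probes of Abcg2 and the 3 of Abcc3 stay within 0.13 and 0.48 of each other on every array, probe 2 of Abcb1b departs from probes 1 and 3, and probe 4 of Abcc4 drops by 4.03 on phenolphthalein replicate 1, where the array has a line of low spots.

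The pumps were also compared by the membrane they serve, 1 probe per gene. Of 8 canalicular genes 7 had a positive log2 fold change, and of 2 basolateral genes 2, where 51.8% of all 11434 genes had one. None of the 10 genes passed in limma, against 0.0525% of all genes, and Abcb1a was the 1 gene with an unadjusted p under 0.05, against 14.2% of all genes. The median log2 fold change was 0.16 for the canalicular and 0.34 for the basolateral genes, beside 0.01 for all genes. The canalicular median was 0.29 without phenolphthalein replicate 1 and 0.06 without phenolphthalein replicate 3. The basolateral median was 0.10 without phenolphthalein replicate 1, 0.56 without phenolphthalein replicate 2 and 0.21 without corn oil replicate 3. The canalicular median minus the basolateral median was -0.19, and 0.19 without phenolphthalein replicate 1. With all arrays it was 0.07 with every probe counted once and 0.10 with a gene's probes averaged. Averaged with the low array columns masked, it was -0.13. Its direction thus depended on that array and on the choice of probes.

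By array, the canalicular genes deviated from their means by -0.04, 0.18 and 0.18 on average with phenolphthalein, and by -0.17, 0.20 and -0.35 with corn oil. The basolateral genes deviated by 0.66, -0.26 and 0.11 with phenolphthalein, and by -0.11, 0.03 and -0.43 with corn oil. Corn oil replicate 3 was the lowest array for both membranes, and the high basolateral value of phenolphthalein replicate 1 came from Abcc3, since Abcc4 was lowest there among the phenolphthalein arrays. With every probe counted once, the medians were 0.23 over 11 canalicular and 0.16 over 7 basolateral probes. With only 2 basolateral genes the comparison of membranes is a description.

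**Figure D3:**
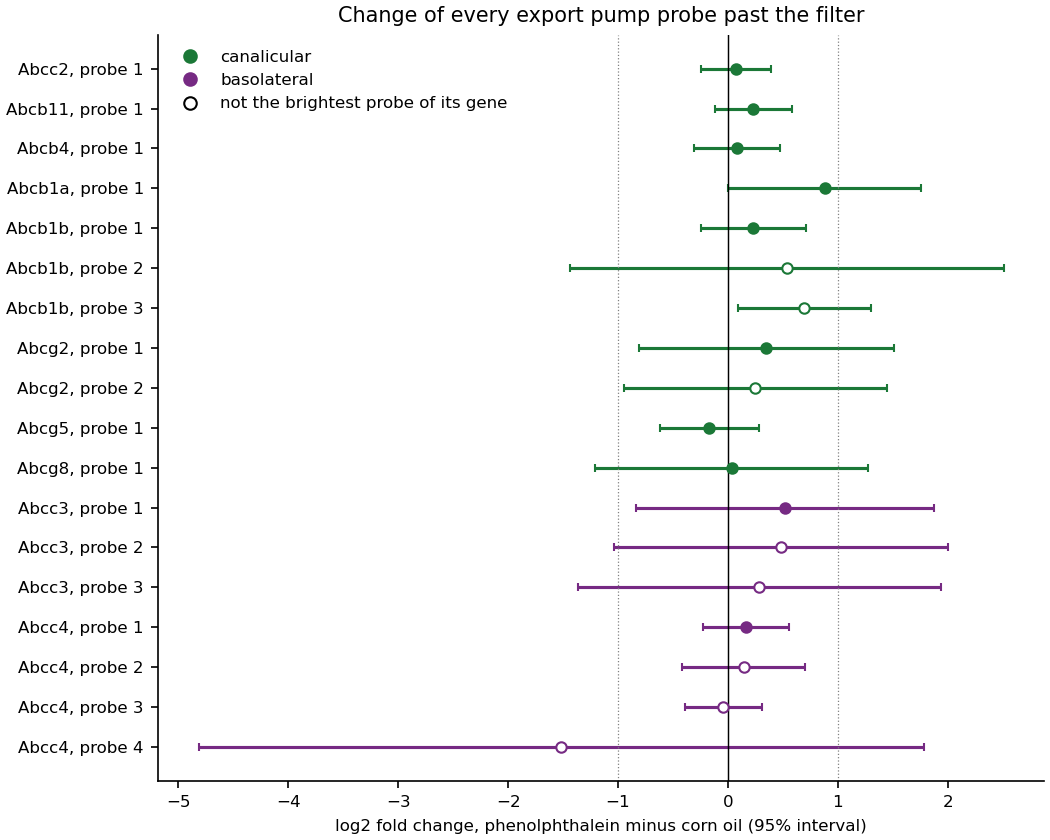
Log2 fold change, phenolphthalein minus corn oil, of the 18 pump probes tested, with 95% intervals from limma, canalicular genes in green above basolateral genes in purple and dotted lines at a 2-fold change. The interval stays within the dotted lines for 8 probes, and the lower ends of those of Abcb1a and of probe 3 of Abcb1b lie just above 0.

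The intervals say which changes these arrays could have missed. For 8 of the 18 probes (44.4%) the 95% interval lay within a 2-fold change either way, against 85.6% of all probes. Counted by gene, with its brightest probe, these were 5 of 8 canalicular genes, namely Abcc2, Abcb11, Abcb4, Abcb1b and Abcg5, and Abcc4 of the 2 basolateral ones. The log2 intervals of probes 2 and 3 of Abcb1b, -1.44 to 2.51 and 0.09 to 1.30, went beyond a 2-fold change. So did that of probe 4 of Abcc4, the probe with the low spot. For Abcb1a, Abcg2, Abcg8 and Abcc3 a 2-fold rise lay inside the interval of the brightest probe, and for Abcg8 also a 2-fold fall. The SD between animals within groups was 0.16 for Abcc2, 0.70 for Abcg2, 0.75 for Abcg8 and 0.82 for Abcc3, beside a median of 0.15 over all genes. Of all genes, 97.4% had a smaller SD than Abcc3 and 53.1% a smaller one than Abcc2.

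Related genes were set beside the pumps from lists that, like the members, were chosen with earlier results of these data known. Other ABC genes comprised every gene of the RefSeq table named Abc, and 28 were measured. In limma 0 passed. At an unadjusted p under 0.05 there were 4 positive and 5 negative, where 14.2% of all genes had such a p, and the median log2 fold change was -0.05. Those with the smallest p were Abcg1, a cholesterol exporter prominent in macrophages, at -0.76 ± 0.11 (SE, limma adjusted p = 0.16), Abcc8, a regulatory subunit of potassium channels, at -0.66 ± 0.16 and Abca2 at 0.28 ± 0.08. Abcg1 read 1.19, 1.02 and 1.31 with phenolphthalein, against 2.07, 1.91 and 1.83 with corn oil. The groups did not overlap, and the Kupffer cell markers given above differed the same way. Their part in the Abcg1 difference was not tested.

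Other export proteins of the hepatocyte had a median of 0.10 over 7 measured genes, with 0 past the limma threshold and 0 with an unadjusted p under 0.05. The smallest p were those of the anion exchanger Slc4a2 at 0.11 ± 0.09 (SE), the glycerol channel Aqp9 at -0.21 ± 0.18 and the aminophospholipid flippase Atp8b1 at 0.18 ± 0.16. Genes of the canalicular scaffold and of trafficking to it had a median of -0.02 over 15 genes, with 0 past the limma threshold and 0 with an unadjusted p under 0.05. The trafficking gene Vps33b was at 0.19 ± 0.10 (SE). Radixin, Rdx, which links Abcc2 to actin at the canaliculus, was at -4.18 ± 3.36 (SE). Its spot on phenolphthalein replicate 1 read -7.59, against 4.84 and 4.59 on the other phenolphthalein arrays and 4.73, 4.87 and 4.80 with corn oil, and it too lay in array column 58. With those spots set missing, Rdx was at -0.08 ± 0.12 (SE, limma adjusted p = 0.792).

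Regulators of the pumps had a median of -0.01 over 13 measured genes, with 0 past the limma threshold and 1 with an unadjusted p under 0.05. This was Rxra, the shared partner of the nuclear receptors, at 0.29 ± 0.11 (SE, limma adjusted p = 0.355). Its probe also lay in array column 58, and with the low columns set missing it was at 0.31 ± 0.13 (SE, limma adjusted p = 0.406). Nr1i2, the drug sensor PXR, was at 0.33 ± 0.17 and Ahr, the dioxin receptor, at 0.79 ± 0.43 (SE).

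**Figure D4:**
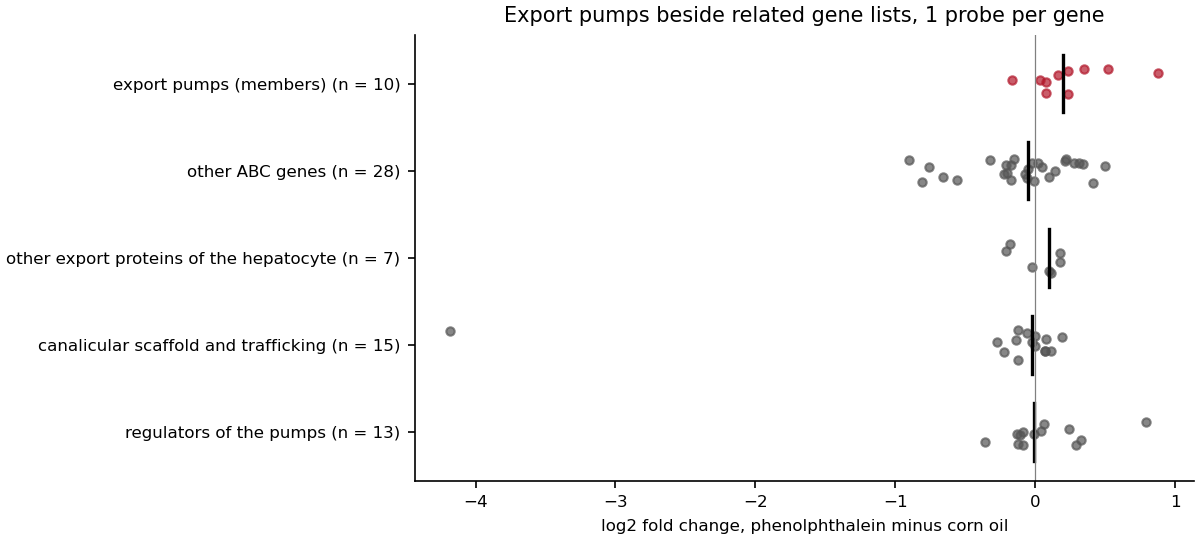
Log2 fold change, phenolphthalein minus corn oil, of the 10 export pumps (red) and of the genes of 4 related lists (grey), 1 probe per gene, with a black line at each median. The medians run from -0.05 to 0.20, and the point at -4.18 is Rdx, whose spot on phenolphthalein replicate 1 lies in the line of low spots.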

How the data were processed

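Per the labels, each liver RNA carried Cy3 and was run on its own Agilent 1-colour array. The deposited scanner files give spot intensity from Agilent Feature Extraction (10.7 per the submitters' processing notes, 10.7.1.1 per the file headers), background-subtracted but with no scaling of arrays to one another. A value table that the authors also deposited gives this signal divided by 1 factor per array, constant to within 0.063% for bright spots, with column medians of 0.0955, 0.0941 and 0.0960 for phenolphthalein and 0.0984, 0.101 and 0.102 for corn oil. It is linear and uncentred.

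Processed signals were put on the log2 scale and each array was shifted to place its 75th percentile at 0. Outlier-marked spots were set missing, and probes were kept if 3 or more of 6 arrays showed them well above background. Accessions were matched to the RefSeq table of GRCr8, which named 27460 probes, and the probe with the highest mean over the 6 arrays stood for a gene. The fit was limma 3.58.1 (R 4.3.3), lmFit and eBayes, over all probes kept, with Benjamini-Hochberg adjustment. It was also run on simulated data with independent noise per probe. These held no slide or scan effect, so that run cannot speak to such effects here. SDs and SEs are over 3 animals per group, and their number limits the precision.

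The members and lists were chosen with earlier results of these data known. Named genes were all members, the 3 smallest p of each of the 4 lists of related genes and the 3 genes nearest in profile to the member gene with the smallest p, and 1 gene of a list is not reported here. Marker lists were described by counts and sums, and the markers named were chosen after their values were seen. Alternatives were normexp with an offset of 50 on median spot intensity, quantile and median scaling, other filters and probe summaries, a trended robust prior, marked spots kept, the deposited table, a fit without each array and a replicate block.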

Additional observations from a re-analysis of the deposited data

How the results depend on the processing

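In all 19 alternatives that fitted the pump probes, 0 passed in limma, and the smallest adjusted p of a gene's brightest probe (or mean of probes) was 0.251. Of 190 gene values under an alternative, 178 kept their sign and 12 turned it. With normexp, Abcc2 was -0.02, Abcb4 -0.03 and Abcg8 -0.03 in log2 fold change, so 6 of 10 genes were positive in place of 9. When a gene's probes were averaged Abcc4 was -0.31, and 0.15 with the low array columns masked. Leaving out 1 array, Abcc2 ran from -0.05 to 0.14, Abcb4 from -0.04 to 0.19, Abcg2 from -0.19 to 0.67, Abcg8 from -0.38 to 0.45 and Abcc3 from -0.08 to 0.97. The canalicular minus basolateral median ran from -0.40 to 0.19 in those fits and was 0.10 with a gene's probes averaged.

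The number of all probes past the threshold was 19. It was 0 without a filter on dim probes, 7 with 1 probe per gene, 6 with a gene's probes averaged, with or without masked columns, and 0 to 5 without 1 array. With the replicate number as a block it was 0, and 0 pump probes passed. The labels give the groups the same numbers and do not say whether these mark a shared cage, day or litter. The deviations of same-numbered arrays from their group means correlated at -0.01, 0.02 and 0.01 over probes. Of the 6 arrays, 0 correlated best with their own number. With 3 arrays per group, these correlations cannot show whether same-numbered animals had such a factor in common. The planned match of pumps by a gene name column was not run, since the scanner data as read here held no such column.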

Other observations

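Markers of the other liver cell types were read from the same fit. Of 7 measured bile duct markers 3 had an unadjusted p under 0.05, all higher with phenolphthalein, against 14.2% of all genes in either direction, and 0 passed in limma. Cftr, a chloride channel of bile duct cells that belongs to the ABC family by sequence, was at -2.85, -3.25 and -3.36 with phenolphthalein, against -4.20, -3.85 and -3.96 with corn oil. The groups did not overlap, and the log2 fold change was 0.85 ± 0.17 (SE, limma adjusted p = 0.203). Spp1, osteopontin, was at 0.92 ± 0.22 and the epithelial adhesion gene Epcam at 0.29 ± 0.09 (SE), both without overlap. Of 4 lymphocyte markers 4 had a negative log2 fold change, with a median of -0.40. Of 6 stellate cell markers 5 had a negative one, with a median of -0.07. At an unadjusted p under 0.05 there was 1 stellate marker in each direction. These were Rgs5 at 0.65 ± 0.19 and Col1a1 at -0.48 ± 0.14 (SE), both without overlap. None of the lymphocyte and stellate cell markers passed in limma. The 2 measured intestinal markers had summed signals of 1.06 to 1.24 with phenolphthalein and 1.42 to 1.49 with corn oil.

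By the root of the summed squared differences in log2 deviation over the 6 arrays, the profiles nearest to Abcb1a among 11426 genes were those of Nrn1l at 0.48, Sbp at 0.51 and Dgat2l6 at 0.59. Their log2 fold changes were 0.77 ± 0.36, 0.94 ± 0.29 and 0.96 ± 0.44 (SE), and none passed in limma. As these genes were picked for closeness to Abcb1a on the same arrays, fold changes near that of Abcb1a follow from the choice. On corn oil replicate 3 all 3 genes lay below -5.13, the lowest log2 signal of a probe well above background on that array, so their profiles and fold changes rest in part on a value not above background.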
